A study of Arabidopsis thaliana with 15 samples.

Results

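The UGT genes of Arabidopsis thaliana encode UDP-glycosyltransferases of small molecules, and 51 of them could be read in this series. They were the genes whose symbol or synonym is UGT followed by a number and letter code, where a probe set named that gene alone. The reference table gives such a code to 64 genes, and the array was read over 22746 probe sets. Each of the 51 genes had 1 probe set, so there was no choice among probe sets. The other 13 genes were not analysed as members, among them UGT74F2, UGT73C5, UGT75B1 and UGT84A2.

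UDP-glycosyltransferases move a sugar from a UDP-sugar onto an acceptor such as a hormone, a phenolic compound, a flavonoid or a foreign chemical. The sugar makes the acceptor more soluble and often inactive, and lets it be stored in the vacuole. In Arabidopsis seedlings the family helps to set the levels of free auxin, cytokinin, abscisic acid and salicylic acid. It also glucosylates lignin precursors and flavonols and adds the glucose of the glucosinolate core. Several members are known to respond to pathogens and to foreign chemicals.

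Whole seedlings of the Columbia ecotype were grown on MS medium with sucrose for 5 days at 22 °C under continuous light and then moved to new plates, and Affymetrix ATH1 arrays measured their RNA in 5 groups of 3 arrays. Plates of the induced seedlings held 10 µM estrogen, which switched on either FAMA, a bHLH transcription factor of late guard cell development, or FAMA-EAR, the same factor joined to a repression domain. Groups were control 4 h and FAMA 4 h (seedlings 5 days old), and control 48 h, FAMA 48 h and FAMA-EAR 48 h (7 days old). Controls had no estrogen, so the effects of estrogen and of the construct cannot be told apart in any comparison with a control. Both induced groups at 48 h had estrogen, but between them construct, plant line and level of FAMA signal cannot be told apart. The labels state neither the line used for the controls, nor the promoter of the inducible system, nor how many lines carried each construct, nor whether replicates came from separate cultures. A p-value therefore covers only how these samples vary, and that variation may be technical.

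Values were MAS5 signals, a linear measure of probe set brightness that the authors scaled to a common level on each array. The median signal was between 188.2 and 199 on 14 arrays and 239.5 on the third FAMA 4 h array. FAMA itself had signals of 229.6 to 255.7 on the control arrays, 11695.5 to 12831 in FAMA 4 h, 16934 to 18576 in FAMA 48 h and 2726 to 3456.5 in FAMA-EAR 48 h. Green tissue was present, since 5 photosynthesis genes (RCA, LHCB4.1, SBPASE, PSAN and PRK) summed to at least 50701 on every array, and so was root, since PYK10, a root beta-glucosidase, had at least 10990. Of the root markers 2 of 8 could be read, of the green tissue markers 5 of 7, of the guard cell markers 4 of 4 and of the epidermis markers 0 of 4. In a bulk seedling, fewer cells of a type and less RNA per cell cannot be told apart.

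Between 4 h and 48 h on plates without estrogen, the 9 UGT genes that passed the test were lower at 48 h and the other 42 did not pass. Of all probe sets 3.81% passed as lower and 3.37% as higher. Of the 8 that passed in FAMA-EAR seedlings 7 were lower than in the controls, where 3.2% of all probe sets passed. The count of 8 fell to 3 without the third or the second 48 h control. With FAMA at 48 h both directions occurred, and 21.6% of all probe sets passed. Tests were made with limma on log2(signal + 20), with Benjamini-Hochberg adjustment over all 22746 probe sets and a threshold of 0.05, and "called" means past that threshold. Each standard error (SE) of a log2 fold change comes from limma's moderated variance.

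From control 4 h to control 48 h, 9 of 51 members were lower and 0 higher, where 7.18% of all probe sets were called, 3.37% as higher and 3.81% as lower. Array weights gave 1 higher and 10 lower. With FAMA at 4 h, 2 members were lower and 0 higher, where 2.92% of all probe sets were called (1.15% higher, 1.77% lower). The count was 1 without the third or the second 4 h control or the first FAMA 4 h array, and 4 without the second FAMA 4 h array. With FAMA at 48 h, 4 were higher and 8 lower, or 23.5% of the members, close to the 21.6% of all probe sets (10.6% higher, 11% lower). With FAMA-EAR at 48 h, 1 was higher and 7 lower, 15.7% of the members where 3.2% of all probe sets were called (1.39% higher, 1.81% lower). That count was 3 without the third or the second 48 h control, and 4 without the third or the second FAMA-EAR array. Setting the array medians equal left 0 higher and 5 lower.

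Between FAMA 48 h and FAMA-EAR 48 h, 7 members were higher and 7 lower with FAMA, 27.5% of the members against 22.7% of all probe sets (11.1% higher, 11.6% lower). The count was 9 without the third or the second FAMA 48 h array and 8 without the second FAMA-EAR array. The median log2 fold change of the 51 members was -0.07 for FAMA and -0.07 for FAMA-EAR at 48 h, beside -0.02 and -0.01 for all probe sets. In the controls from 4 h to 48 h it was -0.16, beside 0.03. These comparisons share arrays (the 48 h controls serve in 3 of them), so their counts are not independent of each other.

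**Figure D1:**
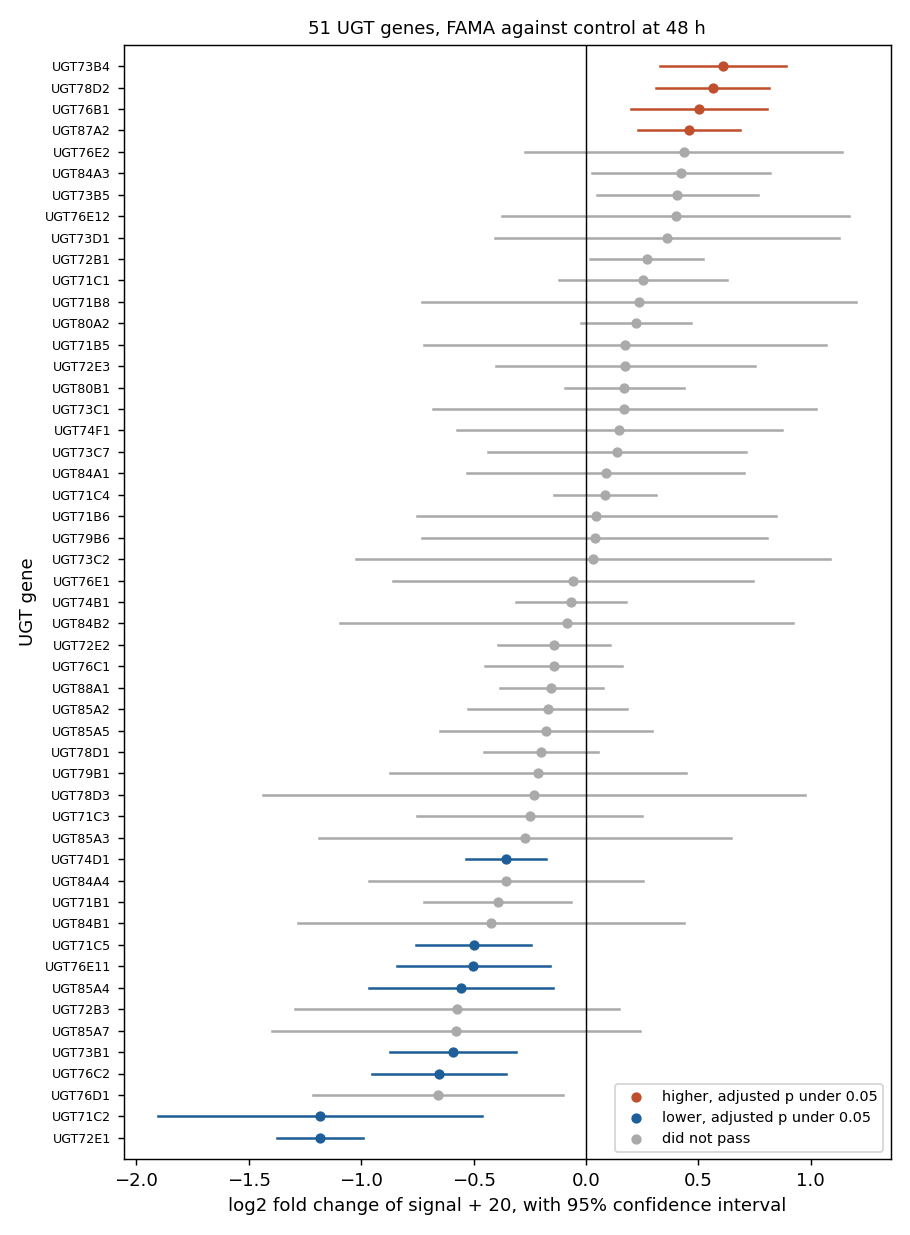
Log2 fold change of signal + 20 for 51 UGT genes, FAMA 48 h against control 48 h (n = 3 arrays each), on the horizontal axis, with 1 row per gene; points are estimates and bars are 95% confidence intervals from limma. UGT72E1 and UGT71C2 are lowest at -1.18 each (UGT71C2 lay at -0.57 with an offset of 98.7), and the 4 genes called higher lie between 0.46 and 0.61.

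The 3 largest differences between FAMA and FAMA-EAR were those of UGT73B4 and UGT73B5, of the defence and stress group, and of UGT87A2. UGT73B4 (AT2G15490), which responds to pathogens and can conjugate explosive residues, had signals of 750, 613.2 and 678 in the 4 h controls and 264.1, 289.1 and 304.1 in the 48 h controls. Signals in FAMA 4 h were 598.6, 609.7 and 455.5, in FAMA 48 h 462.8, 396.1 and 483.4, and in FAMA-EAR 48 h 103.3, 115.4 and 102.4. At 48 h the 3 groups did not overlap, with FAMA highest, the controls between and FAMA-EAR lowest. UGT73B4 rose with FAMA at 48 h by 0.61 on the log2 scale (SE 0.134, adjusted p = 0.00186) and fell with FAMA-EAR by 1.27 (SE 0.134, adjusted p = 7.02e-06), both against the same controls. Directly compared, FAMA lay 1.88 above FAMA-EAR (SE 0.134, adjusted p = 1.23e-09, 3.67-fold), the largest difference among the 51 genes in that comparison. In the controls it fell by 1.19 from 4 h to 48 h (SE 0.134, adjusted p = 5.78e-06), and each of these 4 calls was kept under every alternative run.

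Its neighbour on the chromosome, UGT73B5 (AT2G15480), which is needed for full resistance to Pseudomonas syringae, had signals of 269.5, 335.9 and 393.4 in the 4 h controls and 170.4, 199.9 and 195.4 in the 48 h controls. FAMA 4 h gave 229.5, 357.9 and 319.1, FAMA 48 h gave 261.6, 247.4 and 258.9, and FAMA-EAR gave 95.4, 107.4 and 97.5. The FAMA-EAR arrays were below all others, and the FAMA 48 h arrays above their controls. UGT73B5 fell with FAMA-EAR by 0.79 (SE 0.171, adjusted p = 0.0112) and was higher with FAMA than with FAMA-EAR by 1.20 (SE 0.171, adjusted p = 1.61e-05), while FAMA against control gave 0.41 and did not pass (SE 0.171, adjusted p = 0.105). The difference between FAMA and FAMA-EAR ran from 0.84 to 1.35 over the alternatives. The call of FAMA-EAR against control ended without the third or the second 48 h control (adjusted p = 0.0527 and 0.0541). In the controls it fell with time by 0.75 (SE 0.171, adjusted p = 0.00836), a result lost without the third 4 h control (adjusted p = 0.0712).

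UGT87A2 (AT2G30140), known to act on flowering time and on tolerance to drought and salt, had 885.8, 921.6 and 865.7 in the 4 h controls and 479.4, 583.5 and 570.4 in the 48 h controls. FAMA 4 h gave 751.9, 802.4 and 884.6, which overlapped the controls. At 48 h FAMA gave 711.5, 733 and 817.9 and FAMA-EAR 336.6, 279.7 and 355.9, on either side of the controls and without overlap. The gene rose by 0.46 with FAMA (SE 0.11, adjusted p = 0.0038), fell by 0.72 with FAMA-EAR (SE 0.11, adjusted p = 0.00052) and differed between them by 1.17 (SE 0.11, adjusted p = 6.05e-08). The fall with time in the controls was 0.70 (SE 0.11, adjusted p = 0.000288).

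UGT76B1 (AT3G11340), which glucosylates salicylic acid, isoleucic acid and N-hydroxypipecolic acid and so restrains immune signalling, moved in opposite directions at the 2 times of FAMA induction. Signals were 867.3, 957.7 and 924.1 in the 4 h controls and 489.5, 579.2 and 639.2 in FAMA 4 h, a fall of 0.67 (SE 0.145, adjusted p = 0.0119). In the 48 h controls they were 472.1, 354.4 and 419, against 613.2, 610.3 and 557 in FAMA 48 h, a rise of 0.50 (SE 0.145, adjusted p = 0.015). Neither pair of groups overlapped. With FAMA the mean was 569 ± 75.3 at 4 h and 594 ± 31.6 at 48 h (SD, n = 3 each), while the control signal fell by 1.11 (SE 0.145, adjusted p = 3.22e-05). The 4 h call ended without the third or the second 4 h control or the first FAMA 4 h array (adjusted p = 0.0521 to 0.056), and the 48 h call without the second 48 h control or the first or second FAMA 48 h array (adjusted p = 0.0538 to 0.0903). Both also ended with no variance trend (adjusted p = 0.0754 and 0.0521). FAMA-EAR, with 263.5, 402.9 and 413.8, overlapped the controls and lay below FAMA by 0.72 (SE 0.145, adjusted p = 0.000797).

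UGT73B1 (AT4G34138) stands apart from UGT73B4 and UGT73B5 in this subfamily, since it was lower with both constructs. Its signals were 1307.5, 906.8 and 1160.6 in the 4 h controls, 993.2, 921.9 and 1048 in FAMA 4 h and 614.4, 826 and 843.7 in the 48 h controls. At 48 h FAMA gave 463, 523.7 and 494.9 and FAMA-EAR 575.6, 458.6 and 474.3, all below every control array. It fell by 0.59 with FAMA (SE 0.134, adjusted p = 0.00233) and by 0.57 with FAMA-EAR (SE 0.134, adjusted p = 0.0197), and the difference between the constructs was -0.02 (95% interval -0.30 to 0.26, adjusted p = 0.955). The FAMA-EAR call ended without the third or the second 48 h control or the third or the second FAMA-EAR array (adjusted p = 0.0836 to 0.117), and with no variance trend or only these groups fitted (adjusted p = 0.108 and 0.052). With time in the controls it fell by 0.55 (SE 0.134, adjusted p = 0.013), which no longer passed without the third or the first 4 h control or the first 48 h control (adjusted p = 0.0606 to 0.0973), or with no variance trend or only these groups fitted (adjusted p = 0.0733 and 0.0639). Of the 6 measured genes of the list of salicylate and defence UGTs, which counts UGT73B4, UGT73B5 and UGT76B1, 2 rose with FAMA at 48 h (10.6% of all probe sets did) and 2 fell with FAMA-EAR (1.81% of all probe sets did). The other 3, UGT73D1, UGT74F1 and UGT76D1, passed in no comparison.

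**Figure D2:**
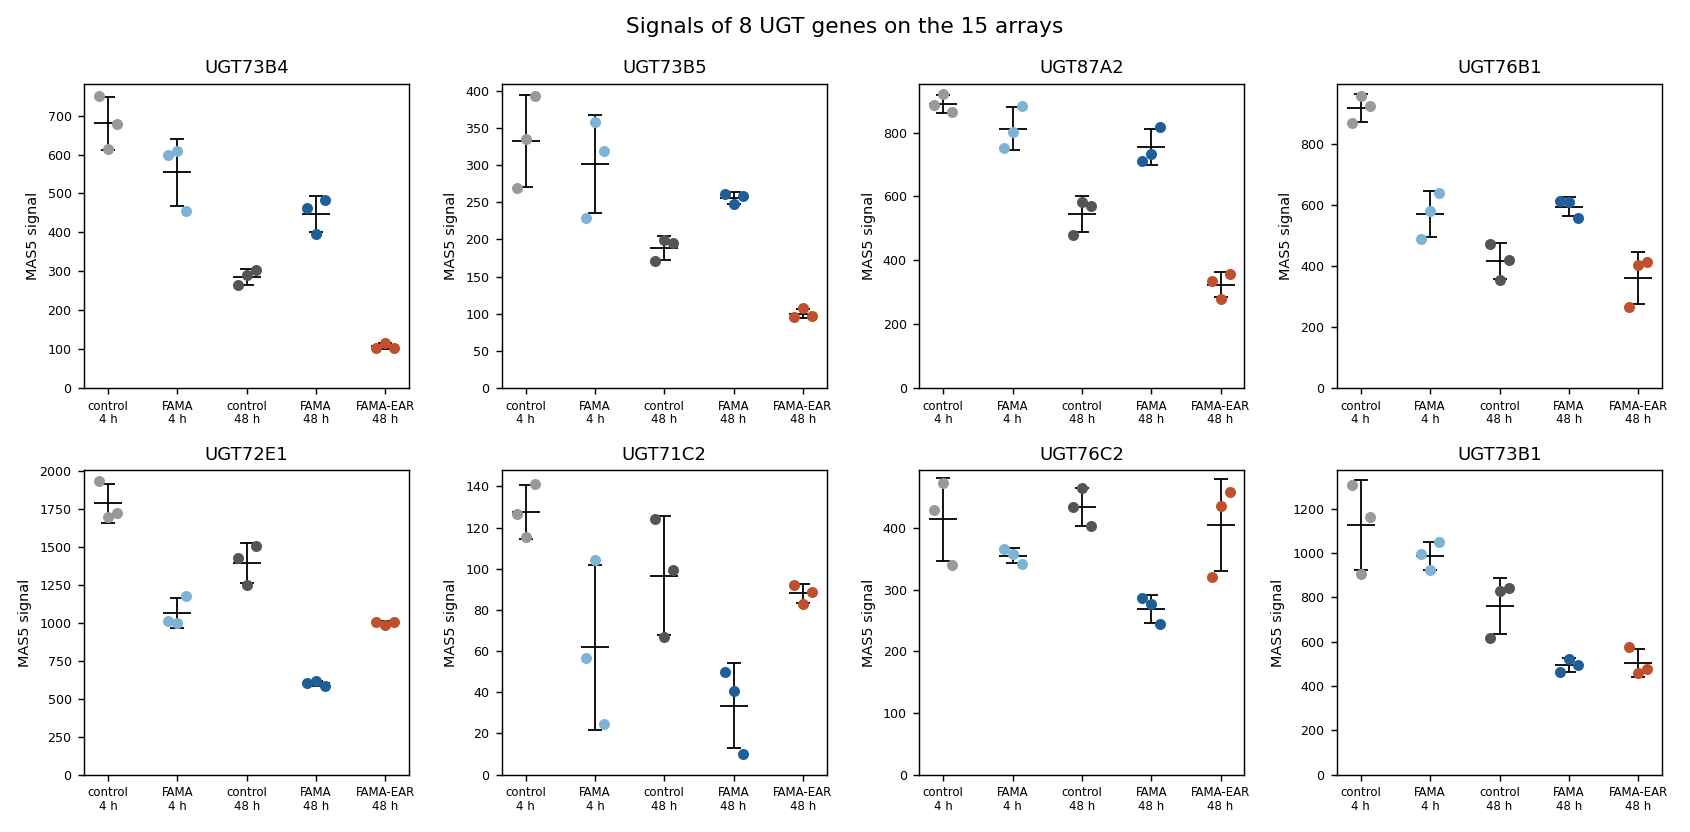
MAS5 signal (linear axis from 0) of 8 UGT genes on each of the 15 arrays by group; points are arrays, the long tick is the mean and the bars are ± 1 SD (n = 3). UGT73B4, UGT73B5 and UGT87A2 are lowest in FAMA-EAR 48 h, and UGT72E1 and UGT71C2 are lowest in FAMA 48 h.

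The FAMA-EAR arrays also differed in 1 measure of RNA quality, a ratio read on 2 transcripts. For actin and GAPDH the 3' probe set was set against the 5' one, a log2 ratio that rises as RNA degrades, and its mean over both was 0.533 to 0.731 on the FAMA-EAR arrays, 0.297 to 0.495 on the 48 h controls and 0.191 to 0.214 on the FAMA 48 h arrays. It moved with every comparison among the 48 h groups, and its part in the UGT results was not tested. The 5 green tissue genes summed to 50701 to 51765 on the FAMA 48 h arrays, 78929 to 87030 on the 48 h controls and 77405 to 86899 on the FAMA-EAR arrays. All 5 fell with FAMA at 48 h, where 11% of all probe sets were called lower and 10.6% higher. Of the 2 root markers, PYK10 fell by 0.68 with FAMA, while EXPA7, an expansin of root hairs, had 137 ± 5.80 against 121 ± 30.6 in the controls (SD, n = 3 each) and did not pass (log2 fold change 0.18, adjusted p = 0.811). Of the 4 guard cell genes, 3 were called higher with FAMA and 1 did not pass. They summed to 10278.5 to 12606 against 3149 to 3744 in the controls. GC1 made up most of these sums, with 10802 ± 1327 against 3015 ± 223 (SD, n = 3 each). The means of CHX20, BLUS1 and PME6 were 469, 362 and 122 with FAMA, against 231, 182 and 92.6 in the controls. The part of these shifts in the UGT values was not tested either.

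Among the glycosyltransferases of lignin precursors and hydroxycinnamates, UGT72E1 fell in each comparison. UGT72E1 (AT3G50740), which glucosylates coniferyl and sinapyl aldehyde, had signals of 1935.1, 1697.2 and 1724.4 in the 4 h controls and 1009, 999.5 and 1174.8 in FAMA 4 h. At 48 h the controls had 1424, 1249.4 and 1502.5, FAMA had 603.1, 614.3 and 582.6, and FAMA-EAR had 1007.6, 986.7 and 1007.4. The groups did not overlap at either time, and FAMA-EAR lay between the controls and FAMA. UGT72E1 fell with FAMA by 0.74 at 4 h (SE 0.091, adjusted p = 8.12e-05) and by 1.18 at 48 h (SE 0.091, adjusted p = 4.56e-09, 2.27-fold). With FAMA-EAR it fell by 0.46 (SE 0.091, adjusted p = 0.00544), and FAMA was lower than FAMA-EAR by 0.72 (SE 0.091, adjusted p = 3.53e-06). These 4 calls were kept under every alternative. In the controls it fell by 0.36 with time (SE 0.091, adjusted p = 0.0178), a result lost without the first 4 h control or the second 48 h control (adjusted p = 0.101 and 0.11) or with no variance trend (adjusted p = 0.072).

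UGT72E2 (AT5G66690), which makes the glucosides of coniferyl and sinapyl alcohol, had 698.3 ± 46.2 in the 48 h controls, 634.5 ± 91.7 with FAMA and 506.5 ± 85.2 with FAMA-EAR (SD, n = 3 each). It fell by 0.46 with FAMA-EAR (SE 0.12, adjusted p = 0.0383), which no longer passed on leaving out any 1 of 5 of the 6 arrays, the exception being the first FAMA-EAR array (adjusted p = 0.0573 to 0.207), and it was lost with equal array medians, no variance trend or only these groups fitted (adjusted p = 0.0782 to 0.132). UGT72E3 (AT5G26310), which acts on sinapyl alcohol, was dim, with 29 to 76.5 over the 15 arrays, and passed in no comparison. UGT72B1 (AT4G01070), which conjugates monolignols and chlorinated anilines, was higher with FAMA than with FAMA-EAR by 0.34 (SE 0.121, adjusted p = 0.0467), going from 1377 ± 104 to 1746 ± 26.2 (SD, n = 3 each). That call ended on leaving out any 1 of 5 of the 6 arrays, all but the third FAMA-EAR array (adjusted p = 0.0924 to 0.144), and with an offset of 98.7, equal array medians or no variance trend (adjusted p = 0.0529 to 0.207).

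The UGT84A genes form esters of glucose with hydroxycinnamates such as sinapate, and those measured here lie side by side on the chromosome. UGT84A1 (AT4G15480) had 140.3, 135.2 and 129.2 in the 4 h controls and 59, 21.6 and 40.5 in the 48 h controls. It fell with time by 1.41 (SE 0.296, adjusted p = 0.00427), and by 0.76 with an offset of 98.7. FAMA 4 h gave 85, 86.4 and 141.3, FAMA 48 h gave 49.9, 33.3 and 44.1, and FAMA-EAR gave 11, 15.1 and 30.9, and no induced group differed from its control past the threshold. UGT84A3 (AT4G15490) was higher with FAMA than with FAMA-EAR by 0.54 (SE 0.19, adjusted p = 0.046), although the arrays overlapped and the call ended without the third or the second array of either group (adjusted p = 0.0828 to 0.26). Without the third FAMA-EAR array the difference was 0.35, and the call also ended with an offset of 98.7, equal array medians, quantile normalization, no variance trend or only these groups fitted (adjusted p = 0.0574 to 0.102). UGT84A4 (AT4G15500) passed in no comparison. Of 7 measured genes of the phenylpropanoid list, 1 fell and 0 rose with FAMA at 48 h, near the 11% of all probe sets called lower. With FAMA-EAR 2 fell and 0 rose (1.81% of all probe sets were called lower), and in the controls over time also 2 and 0 (3.81%). Between FAMA and FAMA-EAR 2 were higher and 1 lower with FAMA (11.1% and 11.6% of all probe sets).

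Among the glycosyltransferases listed for hormones, 1 of 3 measured fell with FAMA at 48 h in each of the cytokinin, abscisic acid and auxin lists and 0 rose, where 11% of all probe sets were called lower and 10.6% higher. UGT76C2 (AT5G05860), which puts glucose on a ring nitrogen of cytokinins and so inactivates them, had 429.4, 472.9 and 340.8 in the 4 h controls and 366, 358.4 and 341.5 in FAMA 4 h. At 48 h the controls had 434.6, 465.3 and 403.8, FAMA had 286.4, 277.2 and 243.8, and FAMA-EAR had 320.3, 435.2 and 458.8. FAMA was below every array of the other groups. UGT76C2 fell by 0.65 with FAMA (SE 0.142, adjusted p = 0.00169) and was lower than with FAMA-EAR by 0.54 (SE 0.142, adjusted p = 0.00722), the second call ending without the third FAMA-EAR array (adjusted p = 0.0528). Its neighbour UGT76C1 (AT5G05870), which does the same reaction, had log2 fold changes of -0.14 with FAMA and -0.05 with FAMA-EAR, and neither passed. UGT73C1, the last of the cytokinin list that was measured, was dim, with 2.5 to 72.9 over the arrays, and passed in no comparison.

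UGT71C5 (AT1G07240), which makes the glucose ester of abscisic acid, fell by 0.50 with FAMA at 48 h (SE 0.122, adjusted p = 0.00433), going from 466.9 ± 55.2 to 323.4 ± 26.1 (SD, n = 3 each), without overlap. With FAMA-EAR it stood at 435.9 ± 24.3, and FAMA was lower than that by 0.41 (SE 0.122, adjusted p = 0.0171), which no longer passed without the third or the second FAMA 48 h array or the second FAMA-EAR array (adjusted p = 0.0643 to 0.0739). UGT71B6 and UGT71B8, also listed for abscisic acid, had at most 56.6 and 92.4 on any array and passed in no comparison. UGT74D1 (AT2G31750), which glucosylates auxins and their oxidised forms, fell by 0.35 with FAMA (SE 0.0855, adjusted p = 0.004) and by 0.33 with FAMA-EAR (SE 0.0855, adjusted p = 0.0345), from 1545 ± 152 to 1202 ± 79.9 and 1218 ± 62 (SD, n = 3 each). Both groups lay below every 48 h control, and they differed by -0.02 (95% interval -0.20 to 0.16). The FAMA-EAR call ended with equal array medians, no variance trend or only these groups fitted (adjusted p = 0.073 to 0.157) or on leaving out any 1 of 5 of the 6 arrays, all but the first 48 h control (adjusted p = 0.0627 to 0.17). In the controls UGT74D1 fell by 0.39 with time (SE 0.0855, adjusted p = 0.0058), and UGT84B1 and UGT84B2, the other auxin genes measured, were dim and passed nowhere.

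Of 10 listed flavonoid glycosyltransferases 5 were measured, and 1 of them rose with FAMA at 48 h, where 10.6% of all probe sets did. Between FAMA and FAMA-EAR 1 was higher and 1 lower with FAMA, where 11.1% and 11.6% of all probe sets were. UGT78D2 (AT5G17050), the flavonoid glucosyltransferase that acts on both flavonols and anthocyanidins, had 683.7, 769.5 and 670.7 in the 48 h controls and 1084.9, 1076.1 and 1003.2 with FAMA. It rose by 0.56 (SE 0.121, adjusted p = 0.0015), with no overlap. FAMA-EAR gave 982.8, 623.6 and 705, and its first array lay far above the other two. FAMA was higher than FAMA-EAR by 0.47 (SE 0.121, adjusted p = 0.00646), a result lost without the second FAMA-EAR array (adjusted p = 0.0625).

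UGT78D1 (AT1G30530), which puts rhamnose on flavonols, had 635.7, 765.3 and 685.5 with FAMA and 1183, 896.5 and 940 with FAMA-EAR at 48 h. It was lower with FAMA by 0.51 (SE 0.121, adjusted p = 0.00304), while neither construct differed from the controls past the threshold (log2 fold changes of -0.20 and 0.31, adjusted p = 0.298 and 0.195). UGT78D3, the flavonol arabinosyltransferase, UGT79B1, which extends anthocyanins with xylose, and UGT79B6 passed in no comparison. UGT78D3 had 1.4 to 25.3 on 14 arrays and 274.3 on the third FAMA 4 h array, so its log2 fold change at 4 h was 1.30 with that array and 0.23 without it (SE 0.578 and adjusted p = 0.252 with it). Of the 51 members, 18 had their highest signal on that array, and 12 of these 18 were among the dimmest 40% of probe sets.

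**Figure D3:**
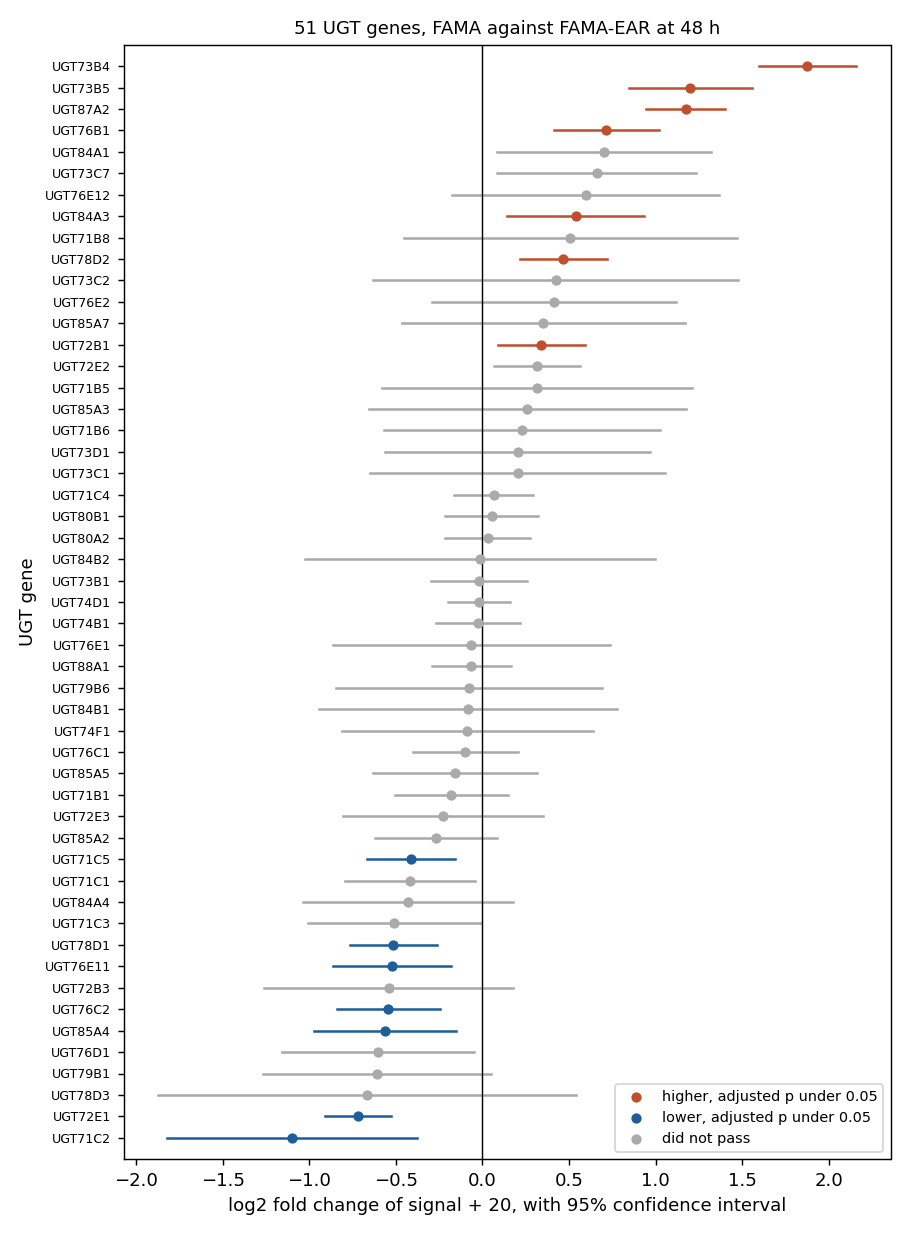
Log2 fold change of signal + 20 for 51 UGT genes, FAMA 48 h against FAMA-EAR 48 h (n = 3 arrays each), on the horizontal axis, with 1 row per gene; points are estimates and bars are 95% confidence intervals from limma. UGT73B4, UGT73B5 and UGT87A2 stand highest at 1.88, 1.20 and 1.17, and UGT71C2 lowest at -1.10 (-0.51 with an offset of 98.7).

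In subfamily 71C, whose members act on phenolic acids, flavonoids or hormones, neighbouring genes gave different readings. UGT71C2 (AT2G29740) had 126.6, 115.2 and 141.2 in the 4 h controls and 56.7, 104.4 and 24.7 in FAMA 4 h, a log2 fold change of -0.97 that did not pass (SE 0.346, adjusted p = 0.151). At 48 h the controls had 124.2, 66.6 and 99.3, FAMA had 49.7, 40.8 and 10.1, and FAMA-EAR had 92.2, 83 and 88.7. The FAMA arrays were the lowest, though the gene was dim and its error large. It fell by 1.18 with FAMA (SE 0.346, adjusted p = 0.0163) and lay 1.10 below FAMA-EAR (SE 0.346, adjusted p = 0.0242). With an offset of 98.7 in place of 20 these values were -0.57 and -0.51, and with an offset of 1 they were -1.72 and -1.63. Without the third FAMA 48 h array the difference from FAMA-EAR was -0.73. The call against control ended after quantile normalization (adjusted p = 0.0997) and without the third or the first 48 h control or the third FAMA 48 h array (adjusted p = 0.0523 to 0.132). The call against FAMA-EAR ended after quantile normalization (adjusted p = 0.112) and without the third FAMA 48 h array or any 1 of the FAMA-EAR arrays (adjusted p = 0.0537 to 0.18).

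UGT71C1 (AT2G29750), which lies beside it, was the 1 member called higher with FAMA-EAR. Its signals were 211.2, 206.7 and 132 in the 48 h controls, 200.7, 271.5 and 189.5 with FAMA and 293.2, 309.7 and 292.1 with FAMA-EAR. The FAMA-EAR arrays were above all 12 others, whose 4 h values were 198.1, 178.1 and 192.9 in the controls and 182.8, 193.3 and 151.7 with FAMA. The rise was 0.67 (SE 0.18, adjusted p = 0.0428), and the call ended with equal array medians, quantile normalization, no variance trend or only these groups fitted (adjusted p = 0.07 to 0.103) or on leaving out any 1 of 5 of the 6 arrays, all but the first 48 h control (adjusted p = 0.0585 to 0.236). UGT71C3 and UGT71C4, beside UGT71C5, passed in no comparison.

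UGT76E11 (AT3G46670) and UGT85A4 (AT1G78270) were lower with FAMA at 48 h than in both other groups. UGT76E11 had 296, 245 and 227.2 in the 4 h controls and 351.6, 277.2 and 391.6 in FAMA 4 h. At 48 h the controls had 240.2, 272.1 and 212, FAMA had 161.9, 141.7 and 191.4, and FAMA-EAR had 257.1, 222.5 and 253.7. FAMA 48 h was below every other array. It fell by 0.50 against control (SE 0.163, adjusted p = 0.0309) and differed from FAMA-EAR by -0.52 (SE 0.163, adjusted p = 0.0235). The first call ended without the first or second array of either group (adjusted p = 0.0728 to 0.147), and the second without the first or second FAMA 48 h array or the third or the first FAMA-EAR array (adjusted p = 0.0641 to 0.12).

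UGT85A4 fell by 0.56 against control (SE 0.197, adjusted p = 0.0475), going from 173.6 ± 44.8 to 109.4 ± 11.4 (SD, n = 3 each). That call ended with an offset of 1, quantile normalization or only these groups fitted (adjusted p = 0.0501 to 0.0712), or on leaving out any 1 of 5 of the 6 arrays, all but the third 48 h control (adjusted p = 0.0671 to 0.233). Against FAMA-EAR its difference was -0.56 (SE 0.197, adjusted p = 0.043), or -0.38 with an offset of 98.7, which no longer passed without any 1 FAMA 48 h array or the first or second FAMA-EAR array (adjusted p = 0.0603 to 0.152). The other UGT85A genes measured, UGT85A2, UGT85A3, UGT85A5 and UGT85A7, passed in no comparison.

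UGT74B1 (AT1G24100), which adds the glucose of the glucosinolate core, had 1289 ± 68.5 in the 48 h controls, 1231 ± 88.1 with FAMA and 1261 ± 194 with FAMA-EAR (SD, n = 3 each), and these groups overlapped. Its log2 fold change was -0.07 with FAMA (95% interval -0.31 to 0.18, adjusted p = 0.795). In the controls it fell by 0.39 with time (SE 0.117, adjusted p = 0.0496), which no longer passed on leaving out any 1 of 5 of the 6 arrays, all but the first 4 h control (adjusted p = 0.0878 to 0.224), and with an offset of 98.7, equal array medians, quantile normalization, no variance trend or only these groups fitted (adjusted p = 0.0556 to 0.173). The sterol glucosyltransferases UGT80A2 and UGT80B1 passed in no comparison, with log2 fold changes of 0.22 and 0.17 with FAMA at 48 h. In all, 20 members (39.2%) were called in at least 1 of the 6 comparisons, where 32.5% of all probe sets were, and 31 in none. Those 31 also include UGT71B1, UGT71B5, UGT72B3, UGT73C2, UGT73C7, UGT76E1, UGT76E2, UGT76E12 and UGT88A1, and 22 of the 51 members lay in the dimmest 40% of probe sets by mean signal, where a change is harder to detect. With FAMA at 48 h the log2 fold changes of the 31 ran from -0.66 for UGT76D1 (SE 0.267, adjusted p = 0.0902) to 0.43 for UGT76E2. The lowest adjusted p of any of the 31 over the 6 comparisons was 0.0739, for UGT73D1 in the controls over time (log2 fold change -1.12), and a p that misses the threshold does not show that a gene was unchanged.

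The effect of FAMA itself differed between 48 h and 4 h for 5 members (3 higher and 2 lower at 48 h, limma interaction), 9.80% of them, where 13.6% of all probe sets were called (6.59% higher, 7.05% lower). Without the second FAMA 4 h array 8 were called, and equal array medians gave 3 higher and 1 lower. The median difference over all probe sets was -0.14 and over the members -0.22, and that of all probe sets was -0.06 with array medians set equal and -0.02 after quantile normalization. Differences given next are relative to the median of all probe sets, and their tests are of the differences themselves. UGT76B1 differed by 1.32 (SE 0.205, adjusted p = 0.00042), UGT73B4 by 1.04 (SE 0.19, adjusted p = 0.00231) and UGT87A2 by 0.73 (SE 0.155, adjusted p = 0.013), each with a higher effect at 48 h. UGT76E11 differed by -0.74 (SE 0.231, adjusted p = 0.0127) and UGT72E1 by -0.30 (SE 0.129, adjusted p = 0.0246). The UGT72E1 call ended with equal array medians or no variance trend (adjusted p = 0.0907 and 0.0709) and without any 1 of 5 arrays, the third and the second 4 h controls, the third and the first 48 h controls and the third FAMA 48 h array (adjusted p = 0.0555 to 0.0764). UGT72E1 fell at both times and UGT76B1 passed in opposite directions.

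**Figure D4:**
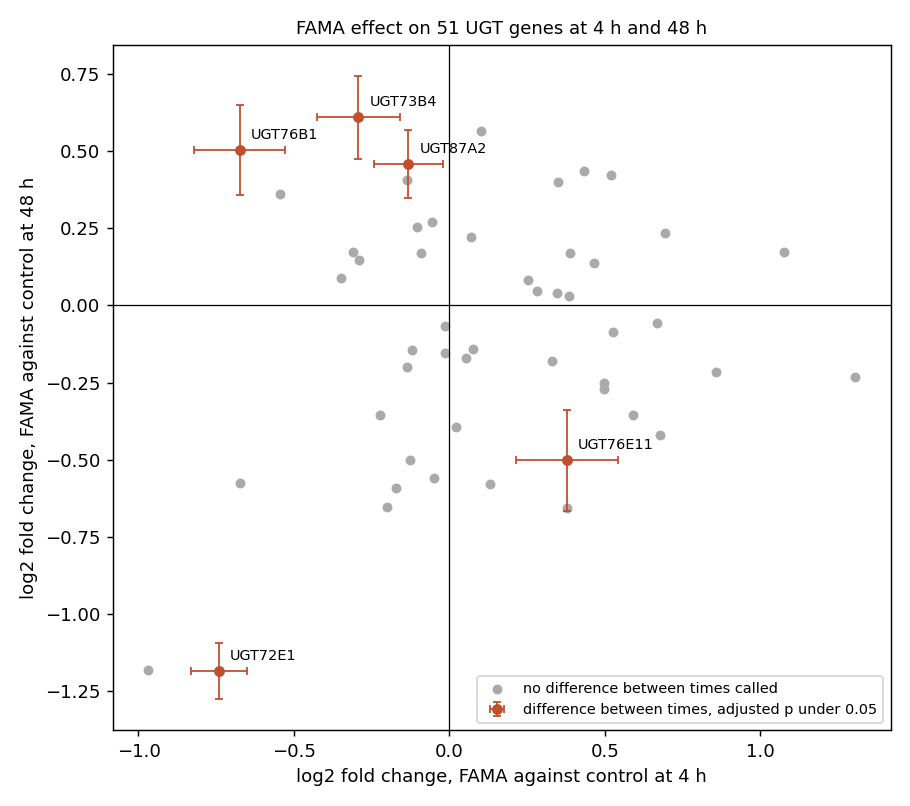
Log2 fold change of signal + 20 with FAMA against control at 4 h (horizontal axis) and at 48 h (vertical axis) for 51 UGT genes; the 5 genes whose effect differed between the times are named and carry bars of ± 1 SE. UGT76B1 lies at -0.67 and 0.50, UGT72E1 at -0.74 and -1.18.

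Members that lie next to each other in the genome, with at most 1 other protein-coding gene between them, formed 13 groups of 30 members. Between FAMA and FAMA-EAR, 22.7% of all probe sets were called. There, 1 of the 13 groups (UGT73B4 and UGT73B5) had 2 members called, in the same direction. Of the others, 6 had 1 member called and 6 had none, so directions could be compared within 1 group only. With FAMA against control at 48 h (21.6% of all probe sets called), 6 groups had 1 member called and 7 had none. UGT73B4 and UGT73B5 were also both lower with FAMA-EAR than in the controls, and in the controls over time. In each of these comparisons 1 other group had 1 member called and 11 had none (3.2% and 7.18% of all probe sets called). Similar neighbours can share probes, which the table used here does not show for sets that name 1 gene.

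Few genes of the pathways that feed or parallel these enzymes could be read. Of all probe sets, 11% were called lower and 10.6% higher with FAMA at 48 h, and 1.15% higher at 4 h. Of 39 listed genes of glucosinolate synthesis 2 were measured, BCAT4 of side-chain elongation and GSTU20, a glutathione transferase linked to the core pathway. With FAMA at 48 h BCAT4 fell by 0.45 (SE 0.108, adjusted p = 0.00405) and GSTU20 fell by 0.69 (SE 0.0915, adjusted p = 7.73e-06), while UGT74B1 of the same pathway did not pass. At 4 h BCAT4 rose by 0.79 (SE 0.108, adjusted p = 0.000243). Of 23 listed genes of phenylpropanoid synthesis 3 were measured, and 1 of them, REF1, which makes ferulic and sinapic acid, fell by 0.31 with FAMA at 48 h (SE 0.0905, adjusted p = 0.0154). DFR and BAN, the 2 measured of 23 flavonoid synthesis genes, and USP, the 1 measured of 28 genes of UDP-sugar supply, passed in no comparison. Of 38 genes that inactivate hormones by other routes 5 were measured, all of the GH3 family of amino acid conjugation. Of these, GH3.3 and GH3.5 fell with FAMA at 48 h by 0.85 and 0.82 (adjusted p = 0.00677 and 7.25e-06), and 0 of 5 rose. Between FAMA and FAMA-EAR 2 of the 5 were lower with FAMA (11.6% of all probe sets were). With FAMA-EAR 1 was lower than in the controls (1.81%), and in the controls over time 1 was lower (3.81%).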

How the data were processed

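The authors deposited MAS5 signal intensity on a linear scale, 1 value for each of 22810 probe sets on 15 arrays. The submitters' processing notes name MAS5 but give no version. The mean of each array with the lowest and highest 2% removed lay between 500.04 and 500.048, so arrays had been scaled to a common level. Because MAS5 subtracts the mismatch probes array by array, dim probe sets are relatively noisy. Detection calls were not used here, and the number of arrays limits the precision.

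Here 64 control probe sets were left out, and log2(signal + 20), with the median of all signals divided by 10 and rounded as the offset, was fitted in limma 3.58.1 (R 4.3.3) with 1 mean per group and 10 residual degrees of freedom, a variance trend, two-sided tests and Benjamini-Hochberg adjustment over 22746 probe sets. An exact test of 3 arrays against 3 cannot go below p = 0.1. Figures were made in Python 3.11.15 (matplotlib 3.10.9).

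Names were taken from a platform table with 13513 probe sets that name 1 gene, updated through the TAIR10.1 gene table; no build is named in the files, so no coordinates are given. The members, the role and pathway lists, and the tests were chosen with earlier results of these data known. Every member is named; values on each array go to members called with an absolute log2 fold change of at least 1, or else to the 5 largest called in a comparison; genes of pathway lists are named if called. Some unmeasured or uncalled list genes are named to complete a count. The listed symbols CHI and APK1 belong to other genes in the table and were left out, and GC1 and PME6 were found by locus tag.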

Additional observations from a re-analysis of the deposited data

Results flagged for a closer look

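The effect of FAMA over its control differed between 48 h and 4 h for 5 UGT genes in the limma test of the difference, given here relative to the median of all probe sets. UGT76B1 differed by 1.32, UGT73B4 by 1.04 and UGT87A2 by 0.73, and for these the effect was higher at 48 h. UGT76E11 differed by -0.74 and UGT72E1 by -0.30. The controls of UGT76B1, UGT73B4 and UGT87A2 fell from 4 h to 48 h by 1.11, 1.19 and 0.70 on the log2 scale, and the same control arrays enter the difference.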

How the results depend on the processing

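Of 50 calls of single UGT genes over the 6 comparisons, 27 were kept under every alternative run and 23 were lost under at least 1, and 0 changed direction. With FAMA at 4 h, 1 member was called with no variance trend, and 1 to 4 with 1 array left out. With FAMA-EAR at 48 h the count was 5 with array medians set equal, 4 with no variance trend and 4 when only the 2 groups were fitted, and 3 to 8 with 1 array left out. With 1 array left out it was 8 to 17 between FAMA and FAMA-EAR, 9 to 15 for FAMA at 48 h, 6 to 9 for the controls over time and 4 to 8 for the difference between times. Among the 15 arrays, only the third FAMA 4 h array was left out also where it was not compared, an alternative chosen after seeing the data, which gave 15 for FAMA at 48 h and 8 for FAMA-EAR. The cause of these shifts was not tested. With 2 arrays left in a group, the spread of the other groups is shared.

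Deviations of same-numbered arrays from their group means had correlations of -0.0612 to 0.0419, and those of differently numbered arrays -0.0862 to 0.0823. For FAMA 48 h against control 48 h these were 0.0130 to 0.0267 and -0.0215 to 0.0027. All are small, and with 3 arrays per group and no label on pairing they cannot show whether the numbers pair arrays. With the replicate block the counts, in the order of FAMA at 4 h, FAMA at 48 h, FAMA-EAR, FAMA against FAMA-EAR, controls and difference between times, were 2, 11, 8, 13, 8 and 5. The block ended 4 calls, those of UGT85A4 for FAMA at 48 h (adjusted p = 0.0537), UGT72B1 and UGT84A3 between FAMA and FAMA-EAR (0.0598 and 0.0541) and UGT74B1 in the controls (0.0586). With the dimmest 40% of probe sets left out, 29 members were tested. The alternative of averaging probe sets of a gene could not be run, because each gene had 1.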

Other observations

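A probe set that reads UGT73B2 and UGT73B3 together, and so belongs to no single member, had 4521 ± 576 in the 4 h controls, 3836 ± 232 in FAMA 4 h, 2293 ± 167 in the 48 h controls, 2812 ± 153 in FAMA 48 h and 1065 ± 166 in FAMA-EAR 48 h (SD, n = 3 each). Both genes belong to the UGT73B subfamily of UGT73B4 and UGT73B5. In the same limma fit it fell by 1.10 with FAMA-EAR (SE 0.106, adjusted p = 2.49e-06) and by 0.97 with time in the controls (SE 0.106, adjusted p = 4.31e-06). With FAMA at 48 h its log2 fold change was 0.29 and did not pass (SE 0.106, adjusted p = 0.0541), and FAMA lay 1.39 above FAMA-EAR (SE 0.106, adjusted p = 3.14e-09). This probe set was described after its values had been seen.

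The probe sets shared by UGT89B1 and AT1G73885, and by UGT71D1 and AT2G29710, passed in 0 of the 6 comparisons in limma. Their log2 fold changes with FAMA at 48 h were 0.17 and 0.13.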
